A study of Mus musculus with 2 samples.

Results

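The growth hormone and IGF axis of the liver was followed here through 10 genes, Ghr, Prlr, Stat5a, Stat5b, Socs2, Cish, Igf1, Igfals, Igfbp1 and Igfbp2, which were chosen by name as the receptors, signal carriers, feedback inhibitors and secreted products of this axis. They were found by pairing the RefSeq identifiers of the mRNA table with mouse symbols, which gave 21 transcripts of the 10 genes among 27457 mRNA transcripts and 20313 genes with a symbol. RNA-seq had been performed on primary hepatocytes of wild-type C57BL/6J mice, with 1 library from mice given intraperitoneal oil and 1 library from mice given intraperitoneal CCl4, a solvent whose metabolism injures hepatocytes. CCl4 was given as a 20% solution in mineral oil at 2.5 ml per kilogram, and the labels give 8 weeks of injection whereas the methods of the study give a shorter course. The mice were young males per the methods, and the number of mice behind a library is not given in the sources used here. Hepatocytes came from collagenase perfusion and density gradient centrifugation, so the libraries can hold RNA of other liver cells. With 1 library per group, no difference below has a replicate check, and "called" means only that a value was at least 2-fold apart between these 2 libraries.

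Growth hormone from the pituitary binds its receptor on hepatocytes, and the kinase JAK2 then phosphorylates STAT5A and STAT5B, which enter the nucleus and drive transcription. Their targets include Igf1, the growth factor that the liver secretes into blood, Igfals, which holds IGF1 in a long-lived circulating complex, and Socs2 and Cish, which damp the receptor's signal. The IGF-binding proteins carry IGF1 and IGF2 in blood, and the gene of IGFBP1 is known to be held down by insulin and induced by fasting. In mice the pulsed release of growth hormone in males sets many sex differences in liver transcripts.

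Of the 10 genes, Igfbp1, Ghr, Igfals and Socs2 were called lower in the CCl4 library, by 8.04-fold, 2.97-fold, 2.88-fold and 2.82-fold. None was called higher. Prlr, Igf1 and Igfbp2 were lower by less than 2-fold, and Cish, Stat5a and Stat5b differed by 1.16-fold, 1.08-fold and 1.01-fold. In a bulk sample, fewer hepatocytes and less RNA of a gene per hepatocyte cannot be told apart, and the 15 hepatocyte markers described below were also lower, with a median log2 ratio of -1.17, as were 16 exocrine pancreas genes, with a median of -1.37. The 4 of 10 called lower compare with 5.55% of the 12009 genes that reached 1 RPKM in a library, and the 0 of 10 called higher with 17.8% of them. Among the 8254 genes with at least 5 RPKM in a library, 7.03% were called lower and 17.6% higher, against 4 and 0 of the 9 members that reached that level. By direction alone, 9 of 10 members were lower in the CCl4 library, against 30.0% of all genes. After scaling to hepatocyte markers only Igfbp1 was called lower, Ghr, Igfals and Socs2 were below 0 but no longer called, and the other 6 members were above 0. Counted by transcript, 8 of 21 were called lower against 5.22% of 16680 transcripts, and 0 of 21 were called higher against 16.6%. The median log2 ratio was -0.79 over the members and 0.34 over all genes, and on the hepatocyte marker scale it was 0.39 and 1.51. The balance over all genes, 2139 called higher and 666 lower, depended on the scaling, with 1242 and 1201 after scaling to the median mRNA and 9259 and 78 after scaling to hepatocyte markers.

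**Figure D1:**
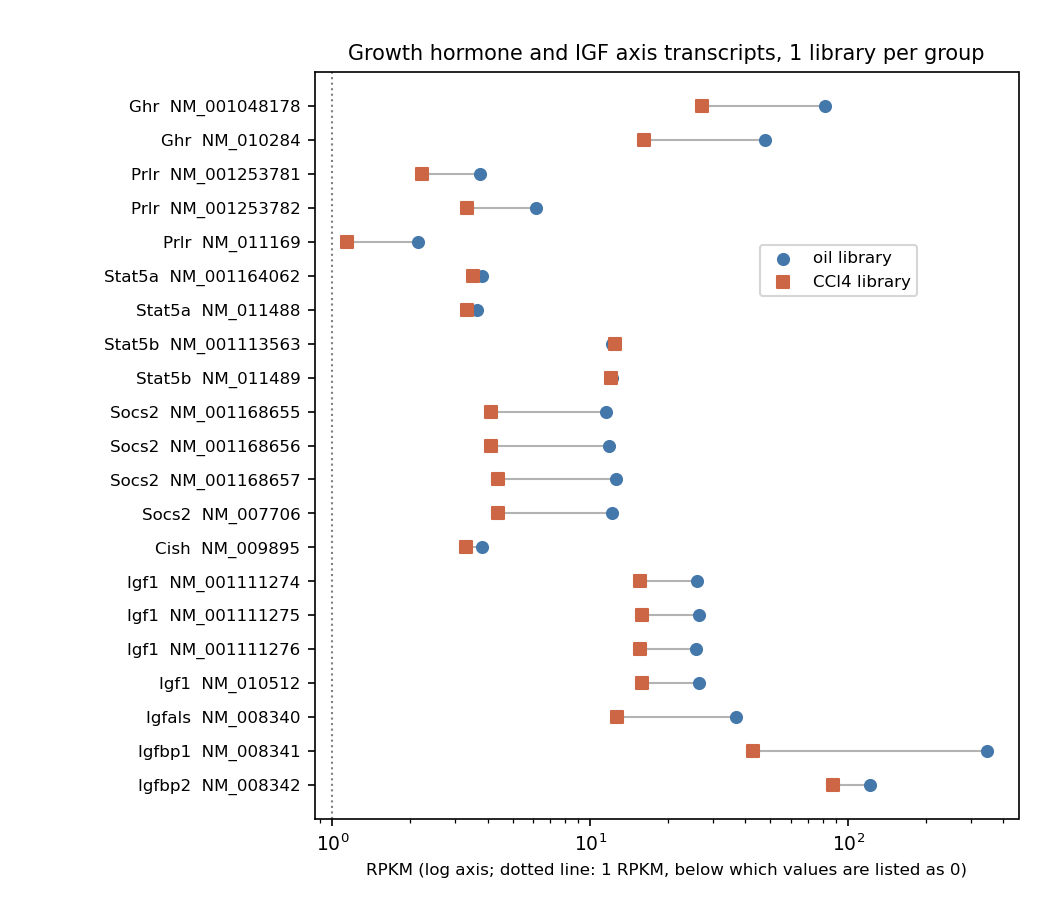
RPKM (reads per kilobase of transcript, scaled to the mapped reads of the library, log axis) of each of the 21 member transcripts in the oil library (circles) and the CCl4 library (squares), 1 library per group and therefore without error bars. The widest gap is that of Igfbp1, from 344 to 42.8 RPKM, and the 2 symbols of each Stat5b transcript nearly coincide.

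RPKM values of short genes fall on steps of whole reads, and from these the depth was recovered as 57992574 reads for the oil library and 64655539 for the CCl4 library. If this depth is right, the read numbers derived from it are lower bounds. Only the shortest transcript length that gave whole reads in both libraries is known. The 95% intervals given below are exact Clopper-Pearson intervals on those reads. They cover counting error only and, if the recovered depth is right, are at least as wide as the true counting error.

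Ghr, on chromosome 15 at 3317755 to 3583352 (GRCm38.p6, the assembly also called mm10), encodes the growth hormone receptor and, by alternative splicing, a soluble binding protein. Its transcript NM_001048178 was at 81.6 RPKM with oil and 27.2 RPKM with CCl4. Its transcript NM_010284 was at 47.4 and 16.2 RPKM. Both transcripts were thus lower in the CCl4 library by nearly the same factor, with log2 ratios of -1.58 (interval -1.66 to -1.51) and -1.54 (interval -1.62 to -1.47). Reads that transcripts of 1 gene share were not separated here, so the transcripts are not independent measurements. The annotation places a lncRNA gene over each of Ghr, Prlr, Socs2, Igf1 and Igfals, and whether counting used strand is not given in the sources used here. Ghr stood at rank 607 among genes with oil and at rank 1627 with CCl4, when each gene is represented by its most abundant transcript.

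Prlr, on chromosome 15 at 10177238 to 10349190, encodes the prolactin receptor, a relative of the growth hormone receptor that also signals through JAK2 and STAT5. It was the receptor with the lower level of the pair in both libraries. NM_001253782 was at 6.15 RPKM with oil and 3.34 RPKM with CCl4, NM_001253781 at 3.75 and 2.23 RPKM, and NM_011169 at 2.15 and 1.14 RPKM. All 3 transcripts were lower in the CCl4 library, with log2 ratios of -0.88, -0.75 and -0.92, and none reached 2-fold.

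Stat5b and Stat5a lie next to each other on chromosome 11, Stat5b at 100780731 to 100859004 and Stat5a at 100859351 to 100885169, with 346 bases between them in the annotation. STAT5B is the form that predominates in liver. Stat5b was at 12.2 RPKM (NM_001113563) and 12.1 RPKM (NM_011489) with oil and at 12.5 and 12 RPKM with CCl4. Its log2 ratios of 0.03 (interval -0.09 to 0.14) and -0.01 (interval -0.09 to 0.07) were within counting error of no difference. Stat5a was at 3.81 RPKM (NM_001164062) and 3.63 RPKM (NM_011488) with oil and at 3.52 and 3.34 RPKM with CCl4. Its log2 ratios of -0.11 (interval -0.26 to 0.03) and -0.12 (interval -0.32 to 0.08) were also within counting error. On the deposited scale the Stat5 transcripts thus showed no difference beyond counting error, but the scale decides this, since Stat5a and Stat5b were at -0.44 and -0.32 after scaling to the median mRNA and at 1.06 and 1.18 after scaling to hepatocyte markers. The ratio of Stat5b to Stat5a, taken within a library from the most abundant transcript of each, was 3.21 with oil and 3.55 with CCl4.

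Socs2 and Cish encode SH2-domain inhibitors of the same family, and both genes are known STAT5 targets. Their levels differed between the libraries in unequal measure. The 4 Socs2 transcripts, from chromosome 10 at 95383903 to 95417321, were at 11.5 to 12.6 RPKM with oil and at 4.11 to 4.39 RPKM with CCl4, with log2 ratios from -1.53 to -1.46. The intervals of the 4 transcripts together ran from -1.72 to -1.32. Cish, on chromosome 9 at 107296659 to 107302784, was at 3.81 RPKM with oil and 3.29 RPKM with CCl4, from at least 477 and 459 reads. Its log2 ratio was -0.21 (interval -0.40 to -0.02). The scale decides this too, since Cish was at -0.54 after scaling to the median mRNA and at 0.96 after scaling to hepatocyte markers. Socs2 was lower by nearly the same factor as Ghr, and the ratio of Socs2 to Ghr was 0.154 with oil and 0.161 with CCl4, a log2 change of the ratio of 0.06. Whether the difference between Socs2 and Cish exceeds that between replicate preparations cannot be told from single libraries.

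Igf1, on chromosome 10 at 87858265 to 87937047, had 4 transcripts at 25.8 to 26.4 RPKM with oil and at 15.6 to 15.9 RPKM with CCl4. Each was lower by a log2 ratio of -0.73, or 1.66-fold, and the intervals together ran from -0.81 to -0.65. On the deposited scale Igf1 was therefore lower in the CCl4 library beyond counting error but short of 2-fold. It was at -1.05 after scaling to the median mRNA and at 0.44 after scaling to hepatocyte markers. Igfals, on chromosome 17 at 24877844 to 24882011, encodes the acid-labile subunit of the circulating IGF complex. It was at 36.7 RPKM with oil and 12.7 RPKM with CCl4, a log2 ratio of -1.53 (interval -1.61 to -1.45). When each gene is represented by its most abundant transcript, Igfals exceeded Igf1 in the oil library, with 1.39 times its level. It was below Igf1 in the CCl4 library, with 0.799 times its level. Sums over transcripts can count reads shared by the 4 Igf1 transcripts more than once. By such sums Igfals was below Igf1 in both libraries, at 0.351 and 0.202 times its level.

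Igfbp1, on chromosome 11 at 7197787 to 7202546, was the most abundant member in the oil library and had the largest change of the 10 genes. It was at 344 RPKM with oil and 42.8 RPKM with CCl4, from at least 7581 and 1051 reads. Its log2 ratio was -3.01 (interval -3.10 to -2.91), and 36 of the 12009 genes were lower still. Its rank among genes moved from 141 in the oil library to 1015 in the CCl4 library. Igfbp2, on chromosome 1 at 72824480 to 72852474, encodes another IGF-binding protein made by hepatocytes. It was at 122 RPKM with oil and 87.7 RPKM with CCl4, a log2 ratio of -0.47 (interval -0.52 to -0.43), and kept nearly its place, at ranks 414 and 474. Igfbp1 had 2.82 times the level of Igfbp2 with oil and 0.488 times its level with CCl4 (this ratio was picked with the values in view). Relative to Igf1, Igfbp1 went from 13 times its level to 2.69 times its level, whereas Igfbp2 went from 4.61 times to 5.51 times. By sums over transcripts Igfbp1 went from 3.29 times to 0.679 times the level of Igf1, and so below it, and Igfbp2 from 1.17 times to 1.39 times.

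By the most abundant transcript, the order of levels in the oil library was Igfbp1, Igfbp2, Ghr, Igfals, Igf1, Socs2, Stat5b, Prlr and then Cish and Stat5a, both at 3.81 RPKM. In the CCl4 library it was Igfbp2, Igfbp1, Ghr, Igf1, Igfals, Stat5b, Socs2, Stat5a, Prlr and Cish. The spread between preparations is unknown, so neighbours in this order, such as Igfals at 12.7 and Stat5b at 12.5 RPKM in the CCl4 library, cannot be separated. Sums over transcripts gave another order. By these, Ghr at 129 RPKM was above Igfbp2 at 122 RPKM with oil. With CCl4, Igf1 at 63 RPKM was above Ghr at 43.5 and Igfbp1 at 42.8 RPKM.

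**Figure D2:**
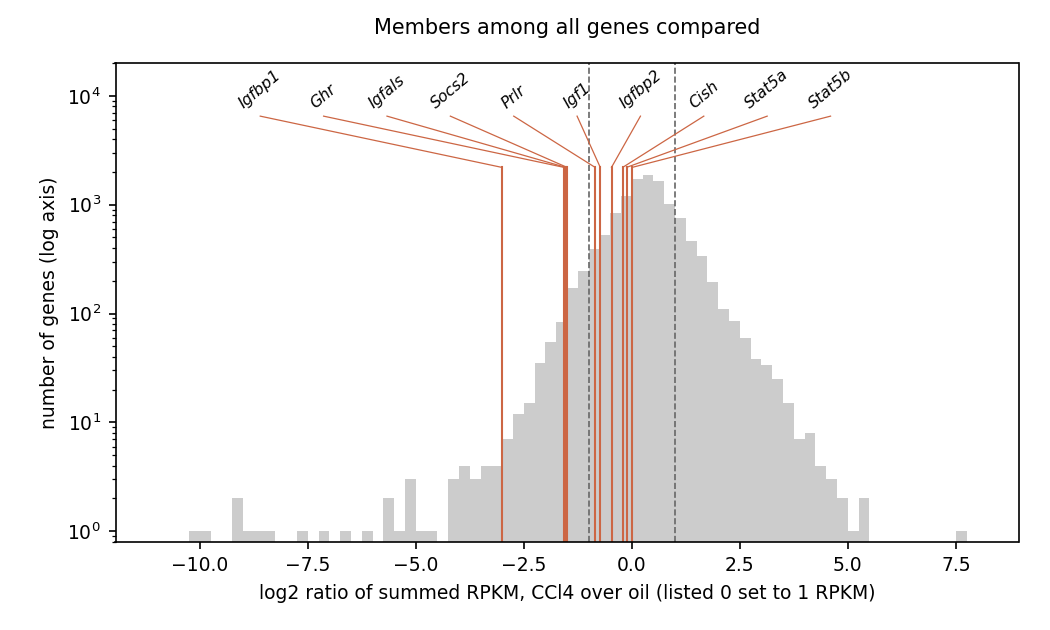
Histogram of the log2 ratio of summed RPKM, CCl4 over oil, of 12009 genes (grey, log axis for the number of genes), with the 10 members as lines and the limits for a call, at -1 and 1, dashed. The members lie from -3.01 (Igfbp1) to 0.01 (Stat5b), and the median of all genes is 0.34.

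The sequence just upstream of the members was examined for sites of the factors that act on this axis. RefSeq promoter windows of GRCm38.p6, each 300 bases from 250 before to 50 after an annotated start, were held for 9 of the 10 members in 17 windows, with none for Socs2. The STAT5 motif TTCNNNGAA reads the same on both strands and was found in 4 of the 17 windows, against 8.29% of the 32817 windows of the table. The FOXO motif GTAAACA, searched on both strands, was in 2 windows, against 3.65%. The core of the insulin response element, CAAAACA, also searched on both strands, was in 2 windows, against 6.29%. No match overlapped a match of another motif in the members' windows. Of the STAT5 targets Cish and Igfals, the first was nearly level on the deposited scale and the second was called lower. The 4 windows below are shown because they hold the STAT5 matches of these genes and the insulin response core of Igfbp1. They are written in the direction of the gene with the matches in capitals, and all 4 lie on the plus strand.
Cish, chr9:107296409-107296708: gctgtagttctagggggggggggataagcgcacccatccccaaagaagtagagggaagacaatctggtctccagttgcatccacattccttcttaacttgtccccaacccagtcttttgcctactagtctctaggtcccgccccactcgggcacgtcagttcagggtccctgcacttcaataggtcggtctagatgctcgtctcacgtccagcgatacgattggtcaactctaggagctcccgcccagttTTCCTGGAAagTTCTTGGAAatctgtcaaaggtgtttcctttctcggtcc
Igfals, window 1, chr17:24877594-24877893: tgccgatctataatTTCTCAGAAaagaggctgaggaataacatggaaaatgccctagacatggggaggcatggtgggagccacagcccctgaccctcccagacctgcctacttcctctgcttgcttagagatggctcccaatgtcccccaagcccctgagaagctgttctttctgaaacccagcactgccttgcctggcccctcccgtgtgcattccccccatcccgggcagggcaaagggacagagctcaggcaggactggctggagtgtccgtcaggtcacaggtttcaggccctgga
Igfals, window 2, chr17:24877981-24878280: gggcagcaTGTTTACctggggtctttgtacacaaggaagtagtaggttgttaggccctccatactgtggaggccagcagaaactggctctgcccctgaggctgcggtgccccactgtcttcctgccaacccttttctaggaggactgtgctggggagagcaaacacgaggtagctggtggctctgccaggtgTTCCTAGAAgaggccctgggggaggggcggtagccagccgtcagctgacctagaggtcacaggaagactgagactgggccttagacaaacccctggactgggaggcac
Igfbp1, chr11:7197537-7197836: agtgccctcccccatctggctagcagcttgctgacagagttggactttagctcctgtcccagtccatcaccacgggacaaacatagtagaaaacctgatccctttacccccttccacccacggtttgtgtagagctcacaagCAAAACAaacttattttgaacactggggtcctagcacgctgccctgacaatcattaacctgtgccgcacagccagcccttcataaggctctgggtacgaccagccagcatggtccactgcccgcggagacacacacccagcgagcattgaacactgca

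The Cish window holds 2 STAT5 matches, TTCCTGGAA and TTCTTGGAA, as do 0.457% of all windows. The first begins at the annotated start and the second 11 bases after it. Igfals has TTCTCAGAA, beginning 236 bases before its first start, and TTCCTAGAA, beginning 58 bases before another annotated start, and the second of these windows also holds the FOXO letters as TGTTTAC. A further STAT5 match, TTCTAGGAA, lies in a window of Prlr, 110 bases before that start, and the same window holds the FOXO letters while another Prlr window holds the insulin response core as TGTTTTG. In Igfbp1 the letters CAAAACA begin 108 bases before the start. Cish, with 2 STAT5 matches, had a log2 ratio of -0.21, and Igfals, with 1 in each of 2 of its 3 windows, had -1.53. The windows of Ghr, Stat5a, Stat5b, Igf1 and Igfbp2 hold none of the 3 sets of letters. A match is a description of the letters and not a bound site.

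The labelled cell type was checked by the markers of hepatocytes and of the cells that can accompany them. The 15 hepatocyte markers found in the table were all lower in the CCl4 library, with log2 ratios from -2.33 to -0.42 and a median of -1.17, and none was at 0. Their summed level was 39755 RPKM with oil and 19322 RPKM with CCl4. The 10 markers of quiescent stellate cells were all called higher, and their sum went from 124 to 752 RPKM, with Ngfr and Pdgfrb at 0 in the oil library. The 10 markers of activated stellate cells and myofibroblasts were all called higher, from 226 to 1393 RPKM in sum, with Lox at 0 in the oil library. Of 11 Kupffer cell and macrophage markers 8 were called higher, and their sum went from 1786 to 4763 RPKM. These counts compare with 17.8% of all genes called higher. Of 10 sinusoidal endothelial markers 2 were called higher, near that share, but all 10 had a higher value with CCl4, with log2 ratios from 0.61 to 1.05. Their median was 0.77, against 0.34 for all genes, and their sum went from 710 to 1241 RPKM. Of 4 cholangiocyte markers that could be compared 2 were called higher, from 189 to 707 RPKM in sum, most of it Spp1 at 176 and 682 RPKM, which is also in the activated stellate list. Krt19 was at 8.86 and 17.8 RPKM, Krt7 at 3.25 and 5.14 RPKM and Epcam at 1.32 and 2.11 RPKM, with Sox9 and Cftr among those at 0 in both libraries. Of 5 erythroid markers 2 were called lower, against 5.55% of all genes, from 4514 to 3004 RPKM in sum, and of 6 lymphocyte markers 2 were called higher, from 13.3 to 24.1 RPKM in sum, with Cd3e and Cd8a at 0 in both libraries. Digestive enzyme genes of the exocrine pancreas were abundant in both libraries, a list added after their values were seen. Of its 17 genes 16 could be compared and 15 were called lower, against 5.55% of all genes, with log2 ratios from -5.69 to -0.95. The sum of the list went from 8241 to 3376 RPKM. Scaled to the hepatocyte markers, 1 of the 16 was still called lower, against 0.650% of all genes. Cela2a was at 1448 and 515 RPKM and Cela1 at 742 and 283 RPKM, log2 ratios of -1.49 and -1.39 that lie close to those of Ghr, Igfals and Socs2. The part of all these cell types in the changes of the members was not tested.

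Set beside the hepatocyte markers, the members divided as follows. Igfbp1 was lower than all 15 markers. Ghr, Igfals and Socs2 lay within their range, each with 5 of the 15 markers lower still. Prlr had 11, Igf1 13 and Igfbp2 14 of the 15 markers below it, and Cish, Stat5a and Stat5b were above every marker. After the CCl4 library was scaled so that the hepatocyte markers had a median log2 ratio of 0, Igfbp1 alone was called lower, at -1.83, against 0.650% of all genes. On that scale Ghr was at -0.40, Igfals at -0.36, Socs2 at -0.32, Prlr at 0.33, Igf1 at 0.44, Igfbp2 at 0.70 and Cish at 0.96. Stat5a at 1.06 and Stat5b at 1.18 were called higher there, as were 77.1% of all genes.

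**Figure D3:**
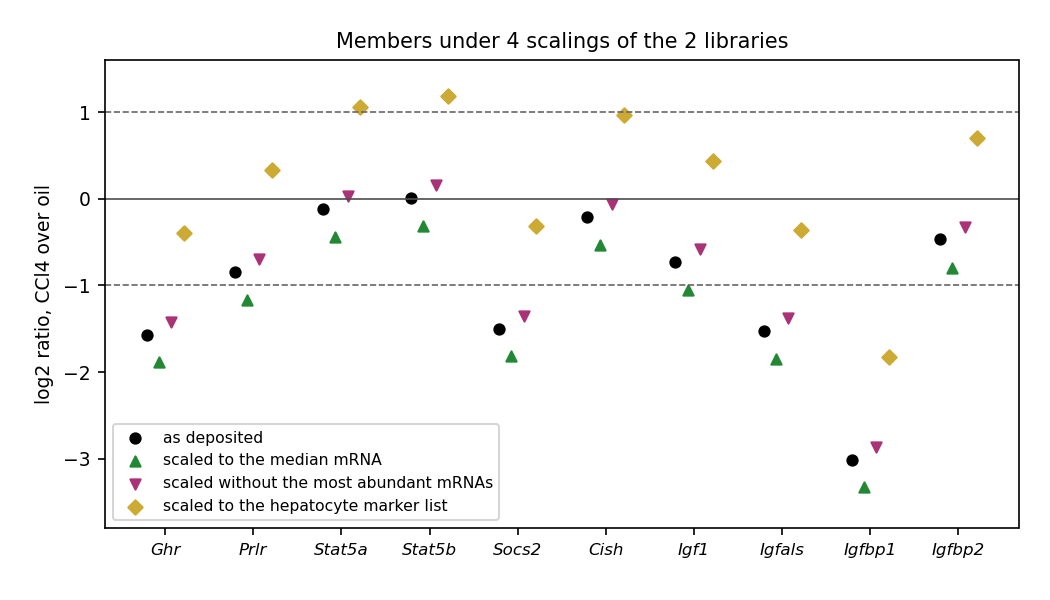
Log2 ratio, CCl4 over oil, of the 10 members under 4 scalings of the 2 libraries, with the limits for a call dashed. The symbols of each gene are the same values moved by 1 constant per scaling, and Igfbp1 is below -1 under all 4, from -3.33 to -1.83.

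Of the 20 genes listed as signalling partners of growth hormone and related cytokines, 19 could be compared, with a median log2 ratio of -0.13. Among them 3 were called lower, against 5.55% of all genes, and 1 higher, against 17.8%. The other 15 lay within 2-fold, as did 9204 of all 12009 genes. Egfr, the epidermal growth factor receptor, whose level in liver depends on growth hormone, went from 254 to 37.7 RPKM. Hnf4a, a hepatocyte transcription factor that works with STAT5B and is also 1 of the hepatocyte markers, went from 149 to 50.1 RPKM. Rora, a nuclear receptor, went from 9.9 to 4.87 RPKM, a log2 ratio of -1.02. After scaling to the hepatocyte markers Egfr was still called lower, at -1.58, whereas Hnf4a at -0.40 and Rora at 0.15 were not, and 11 of the 19 were called higher, against 77.1% of all genes. Grb10, an adaptor that inhibits the insulin and IGF1 receptors, was the gene called higher, from 6.51 to 23.6 RPKM. Jak2, the kinase bound to the growth hormone receptor, was at 8.61 and 14.1 RPKM, a log2 ratio of 0.71, and Socs3, the inhibitor induced by IL-6, was at 18.1 and 16.4 RPKM. These and the following gene values are sums over the transcripts of a gene.

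Of 18 genes for IGF ligands, receptors and other binding proteins, 11 could be compared, with a median log2 ratio of 0.92, and 7 were listed at 0 in both libraries, Igf2 among them. Of the 11 genes 4 were called higher, against 17.8% of all genes, and 0 lower, which is near the 5.55% of all genes. Of the 4, Igf1r entered the comparison only through the CCl4 library. Scaled to the hepatocyte markers, 8 of the 11 were called higher, against 77.1% of all genes. Igfbp3, which carries most circulating IGF1 together with the product of Igfals, went from 3.52 to 46.5 RPKM, a log2 ratio of 3.72. It is the gene next to Igfbp1, 3539 bases away on chromosome 11, so these neighbouring binding protein genes differed in opposite directions. Igfbp1 had 97.6 times the level of Igfbp3 with oil and 0.92 times its level with CCl4 (also picked with the values in view). In liver Igfbp3 is known mainly from cells other than hepatocytes. Igfbp7, a low-affinity binding protein known from endothelial and stellate cells, went from 337 to 1181 RPKM. Htra1, a secreted protease that cleaves binding proteins, went from 2.66 to 10.7 RPKM. Igf1r, the receptor of IGF1, was listed at 0 with oil and at 2.65 RPKM with CCl4. Igfbp4, the most abundant binding protein gene of the list in the oil library, was at 357 and 248 RPKM.

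Genes that share regulators with Igfbp1 were examined next. Of 17 genes controlled by insulin, FOXO1 or ATF4, 14 could be compared, with a median log2 ratio of -0.17. Of these 4 were called lower, against 5.55% of all genes, and 2 higher, a share near the 17.8% of all genes. Pck1 and G6pc, the gluconeogenic enzymes that insulin holds down together with Igfbp1, went from 763 to 179 RPKM and from 146 to 66 RPKM. Chac1 and Asns, targets of the stress factor ATF4, went from 5.3 to 1.31 RPKM and from 4.32 to 1.77 RPKM. All 4 calls ended after scaling to the hepatocyte markers, where Pck1 was at -0.92, Chac1 at -0.84, Asns at -0.12 and G6pc at 0.03. Atf3 and Sesn2, also stress-induced, were called higher, from 3.25 to 13.9 RPKM and from 2.62 to 5.59 RPKM. The call of Sesn2, at a log2 ratio of 1.09, ended with 1 RPKM added or after scaling to the median mRNA. Irs2 and Pdk4, also repressed by insulin, lay just short of 2-fold in opposite directions. Irs2 was at 13.1 and 6.71 RPKM and Pdk4 at 2.12 and 4.15 RPKM. Scaled to the hepatocyte markers, Irs2 was at 0.21 and Pdk4 at 2.14, both in the higher direction.

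Genes whose sex difference in mouse liver is set by growth hormone were examined last. Of 27 male-biased genes, 25 were called lower and 0 higher, against 5.55% and 17.8% of all genes, with a median log2 ratio of -2.36. With 0.1 RPKM added to every value the median was -3.52, and 8 of these genes have a listed 0. Serpina1e, a serine protease inhibitor, went from 4890 to 339 RPKM, Mup3 from 2479 to 215 RPKM and Mup20, a urinary pheromone protein, from 1851 to 327 RPKM. Serpina1e and the Mup genes have near-identical copies among which reads can be split, so their single values are uncertain. In the male-biased list, 8 genes were listed at 0 in the CCl4 library only, and the most abundant of them, Elovl3, a fatty acid elongase named here after its value was seen, was at 205 RPKM in the oil library. These 8 entered the comparison only through the oil library and could not have been higher in the other. Ces2e, at 56.7 and 66.9 RPKM, was the gene of this list with a higher value in the CCl4 library. After scaling to the hepatocyte markers, 14 of the 27 were still called lower, against 0.650% of all genes, with a median of -1.19 against 1.51.

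Of 36 female-biased genes, 20 were listed at 0 in both libraries. Of the 16 that could be compared, 6 were called higher and 2 lower, against 17.8% and 5.55% of all genes, with a median log2 ratio of 0.57. Of the 6 called higher, 3 were listed at 0 with oil and entered the comparison only through the CCl4 library. The number called lower became 4 with 0.1 or 1 RPKM added or after scaling to the median mRNA. After scaling to the hepatocyte markers 11 of the 16 were called higher, against 77.1% of all genes, and 1 lower, and Cyp2a5 at -0.75 was no longer called. Atp6v0d2, a proton pump subunit that macrophages also make, was listed at 0 with oil and at 15.5 RPKM with CCl4. Cyp4a14, a fatty acid hydroxylase, went from 1.26 to 15.4 RPKM, Cyp2b10, a xenobiotic cytochrome, from 2.08 to 8.23 RPKM and Abcd2, a peroxisomal transporter, from 1.19 to 5.57 RPKM. Cyp2a5 went from 50.1 to 13.2 RPKM, and Cyp2c40 was at 5.56 RPKM with oil and listed at 0 with CCl4. Both sex-biased lists were written with earlier results of these data known and are a description of the 2 libraries.

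**Figure D4:**
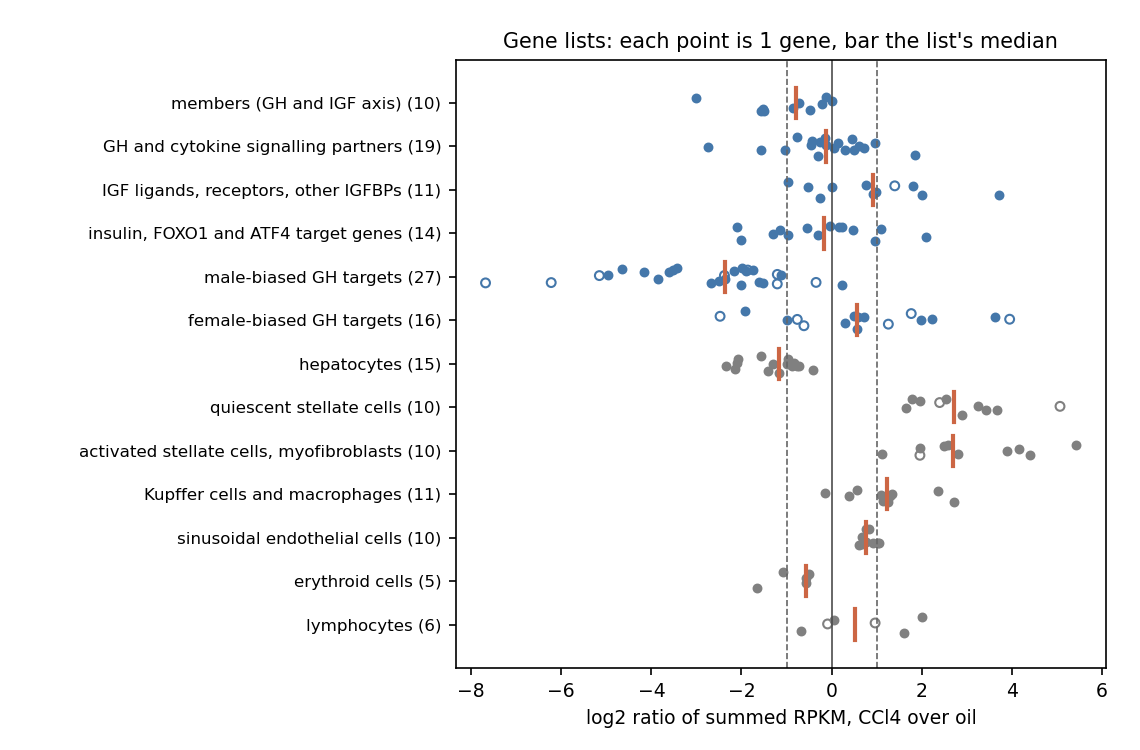
Log2 ratio of summed RPKM, CCl4 over oil, for each gene of the pathway lists (blue) and of the cell type marker lists with at least 5 genes compared (grey), with each list's median as a bar and the number compared in brackets. Open points have a listed 0 in 1 library, set to 1 RPKM. The male-biased targets have a median of -2.36 and the hepatocyte markers one of -1.17, while both stellate cell lists lie wholly above 1.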

How the data were processed

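RNA-seq of 2 libraries of primary hepatocytes was used, 1 per group. The authors deposited RPKM values for annotated mRNAs and lncRNAs, with every value under 1 RPKM listed as 0. On 2886 values of 1443 new lncRNAs, whose RPKM the authors also deposited without that cut, all 2886 followed this rule. Deposited read counts exist for the new lncRNAs only (42051 reads for oil and 49397 for CCl4) and were not tested. The deposited log2 changes, p-values and q-values of the authors' own comparison were not used. Per the submitters' processing notes the build is mm10 and the tools include CASAVA 1.4 and TopHat2. The counting program, strand setting and annotation are not given in the sources used here, so reads from overlapping antisense genes cannot be told apart.

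Symbols were paired through RefSeq of GRCm38.p6 (27045 of 27457 mRNA identifiers). Of the mRNA transcripts, 10777 were at 0 in both libraries and were left out. The log2 ratio is that of CCl4 over oil RPKM, with nothing added and a listed 0 set to the smallest listed value, about 1 RPKM. This understates changes from or to a listed 0. A call is an absolute log2 ratio of at least 1. Gene values are sums over transcripts, which can count shared reads more than once. Levels are therefore compared between genes by the most abundant transcript. No test was made, since there is no replicate.

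Library totals were searched within a fixed range so that lncRNA genes under 400 bases gave whole reads within 0.02 reads. This held for 210 of 222 genes (oil) and 224 of 237 (CCl4). A multiple of a true total would also give whole reads, so the totals rest on that range. For each member transcript, lengths from 50 to 30000 bases were tried, and the shortest one with whole reads for oil and CCl4 alike was kept. Named are all members and, from each pathway list, up to 4 called genes in each direction with the highest RPKM. Uncalled genes are named where a sentence needs their level. Genes of the cell type marker lists and of the pancreas list were named without this rule. Some genes of the lists are not reported here by name. The members, lists and rules were chosen with earlier results of these data known. The call rule was tested on simulated data that held counting error only. These had no spread between preparations and no shift in cell mixture, so they do not bear on either. Python 3.11.15, numpy 2.4.6, pandas 2.3.3, scipy 1.17.1 and matplotlib 3.10.9 were used.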

Additional observations from a re-analysis of the deposited data

How the results depend on the processing

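Alternatives were the addition of 0.1 or 1 RPKM, 3 other scalings, a log2 ratio of at least 2, a minimum of 5 RPKM in a library, the highest transcript per gene, and leaving out genes with a listed 0. Igfbp1 was called lower under all of them and Stat5b was between -0.32 and 1.18. None of the 4 members called lower changed its sign under any of them. After scaling to the hepatocyte markers the median became 0.39 for the members (from -0.79), 1.04 for the partners (from -0.13) and 1.01 for the insulin, FOXO1 and ATF4 list (from -0.17), and Rora and G6pc, called lower at -1.02 and -1.14, were at 0.15 and 0.03. Among mRNAs listed above 0 for oil and for CCl4, the median transcript had a log2 ratio of 0.33, and the cause of the moves below was not tested beyond their construction.

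At a log2 ratio of at least 2, 1 member was called lower, and the counts became 2 higher for the IGF system, 3 higher and 1 lower for the female-biased list, 0 higher and 1 lower for the signalling partners, 1 higher and 2 lower for the insulin, FOXO1 and ATF4 list, 16 lower for the male-biased list, 395 higher and 106 lower for all genes, and 376 higher and 137 lower for all transcripts. Scaling to the hepatocyte markers gave 2 members higher and 1 lower, 8 of the IGF system higher, 11 female-biased higher and 1 lower, 11 partners higher and 1 lower, 7 insulin-list genes higher and 0 lower, 1 male-biased gene higher and 14 lower, 9259 genes higher and 78 lower, and 12996 transcripts higher and 100 lower. Scaling to the median mRNA gave 1 IGF system gene lower, 4 female-biased lower, 1 insulin-list gene higher, 1242 genes higher and 1201 lower, and 1489 transcripts higher and 1587 lower, and there Prlr at -1.17 and Igf1 at -1.05 were also called lower. With 0.1 or 1 RPKM added, 4 female-biased genes were lower, and with 1 RPKM added 1 insulin-list gene was higher. Without the most abundant mRNAs in the scaling, 2 partners were higher. With a minimum of 5 RPKM, 1819 transcripts were higher. No paired analysis was possible because each group has 1 library. At least 409 reads lie behind each Stat5 value, and scaling to the median mRNA or to the hepatocyte markers moved these values by more than counting error.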

Other observations

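Genes that lie beside Igfals and Socs2 were compared. Nubp2, an iron-sulfur cluster assembly gene 599 bases from Igfals, was at 13.2 RPKM with oil and 12.1 RPKM with CCl4, and Spsb3, 3970 bases away, was at 29.8 and 39.2 RPKM, while Igfals itself went from 36.7 to 12.7 RPKM. The lncRNA 5730420D15Rik, which begins 53 bases from Socs2, was listed at 0 in both libraries.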
